A study of Drosophila melanogaster with 6 samples.

Results

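The cell cycle and DNA replication genes described here are a list of 35 named Drosophila melanogaster genes, sorted into G1/S regulators, replication genes and G2/M genes. Of the 35 genes, 34 were found by symbol among the 17559 gene identifiers of the count table, and all 34 passed the filter on low counts that left 8707 genes for testing. The exception was Orc1, a subunit of the origin recognition complex, which was not analysed here by name. The libraries were made from polyadenylated RNA of GFP-labelled cells of the outer proliferation centre, the larval optic lobe epithelium that gives rise to the medulla. Cells of its dorsal side or of its ventral side were drawn up with a glass micropipette from late second-instar (L2) brains, labelled female, of larvae raised at 25 °C. There were 3 dorsal and 3 ventral libraries, each pooled from the cells of 3 to 4 brains. Neither the genotype nor the driver of the GFP is stated in the labels.

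A dividing cell passes from G1 into S phase when cyclin and kinase pairs relieve the brake that Retinoblastoma proteins place on E2F transcription factors, which in turn switch on genes for DNA replication. Origins are licensed in G1 by the origin recognition complex, Cdt1 and the Mcm helicase, and mitosis is later triggered by Cdk1 with its A- and B-type cyclins after the phosphatase String removes an inhibitory phosphate. The neuroepithelial cells of the outer proliferation centre expand by symmetric division before they turn into asymmetrically dividing neuroblasts, so both cell types cycle. In bulk samples, fewer cycling cells and less RNA per cell cannot be told apart.

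Total counts lay between 21114019 and 27815885 reads per library. The labels of position fitted the Spalt genes, with salm at 35.4 to 60.0 CPM (counts scaled to a common total with edgeR's TMM factors) in dorsal libraries and at 0.0491 to 0.417 CPM in ventral ones, while disco had 0.624 to 3.59 CPM on the dorsal and 32.6 to 61.4 CPM on the ventral side. The dosage compensation RNA lncRNA:roX2, which is made mainly in males, had 0 to 16000 reads per library although all are labelled female, and it was at 0 in dorsal replicate 3. The first principal component of log2 CPM (32.4% of the variance) set ventral replicate 1 apart and the second (24.6%) ventral replicate 2, so results on the members are also given without them. Of 7 neuroepithelial marker genes, none was at 0, and their summed level was 1145 to 1958 CPM per dorsal and 1349.8 to 2341 CPM per ventral library. The summed level of 6 neuroblast genes was 486 to 1170.2 and 635 to 1283 CPM, that of 7 neuron genes 487 to 923 and 625 to 1233 CPM and that of 7 glia genes 1182 to 1221 and 994 to 1359 CPM. The neuron sums rest mostly on elav and fne. The glia sums rest mostly on nrv2 (861 to 1161 CPM) and Eaat1 (117 to 177 CPM), while the glial factor gene repo had 0.156 to 3.03 CPM. In the neuroepithelial sums hth was the largest part of each library (522 to 1078 CPM). The sums therefore do not rank the cell types by their share of RNA. Gene by gene the neuron list had a median log2 fold change (dorsal minus ventral) of -1.25, with 0 of 7 called by edgeR. At an unadjusted p under 0.05 (edgeR) 4 of 7 passed, against 3.2% of all tested genes. These were nSyb, brp, Syt1 and CadN, all with higher ventral means. For nSyb that mean rests on ventral replicate 1, with 39.0, 6.63 and 0.618 CPM in the ventral and 1.05, 1.06 and 1.64 CPM in the dorsal libraries. Of the 7 genes 2 had higher dorsal values, among them Rbp9 with 2.48 to 3.12 CPM in dorsal and 0.495 to 1.62 CPM in ventral libraries. The part of neuronal RNA in the comparison of the members was not tested. Markers of blood, muscle and fat body (6 genes) summed to 4.21 to 7.86 and 3.59 to 11.0 CPM, with He at 0 reads in 3 libraries.

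All 34 genes were read in every library, with 460 to 36361 reads per gene and library. To compare genes with each other, levels were set on a per-length scale (TPM, computed from the counts and the union of annotated exons). On that scale the 34 genes together held 0.478% to 0.580% of a library. The median tested gene had a mean level of 17.4 TPM, and 33 of the 34 genes lay above it. The exception was Rbf, a Retinoblastoma family gene of the fly, at 11.1 TPM (range over 6 libraries 8.40 to 14.0).

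**Figure D1:**
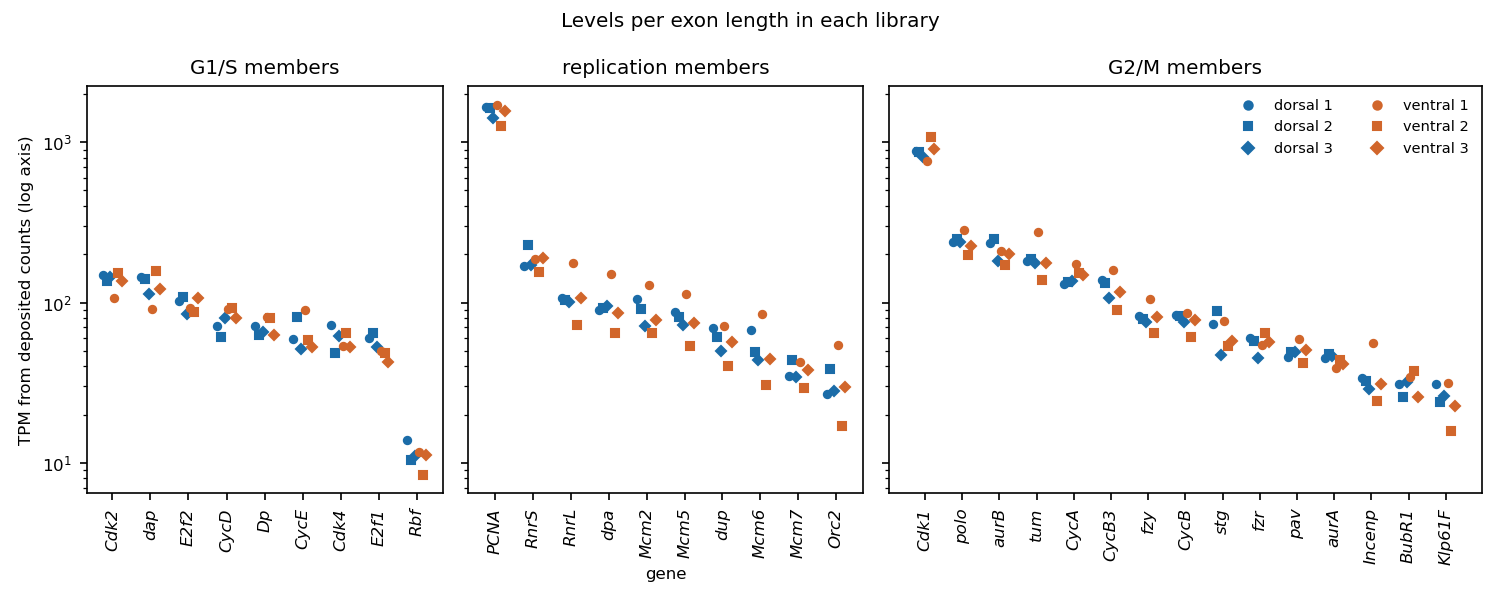
Level of each gene in TPM (log axis) in the 6 libraries, by phase group and ordered by mean level; blue marks are dorsal, orange marks ventral, and circle, square and diamond are replicates 1, 2 and 3. PCNA and Cdk1 stand above the other members of their groups in all 6 libraries, and Rbf stands below the other G1/S genes.

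Among the G1/S regulators, the highest levels belonged to Cdk2, the kinase partner of Cyclin E, at 138 TPM, and to its inhibitor dacapo (dap), the fly p21/p27 homologue, at 128 TPM. The range of Cdk2 over the 6 libraries was 107 to 153 TPM and that of dap 90.8 to 156 TPM, so these neighbours in the order did not differ beyond their spread. Exons of Cdk2 share 43.9% of their length with CG17267 on the opposite strand, so the place of Cdk2 is uncertain. Cyclin E itself (CycE) stood lower, at 65.4 TPM (51.2 to 89.2). That order comes from the per-length scale, with 5047 bp of exons for CycE and 2299 bp for Cdk2. In CPM the ranges of CycE and Cdk2 overlapped, at 187 to 306 and 167 to 261. The repressor E2f2 (97.3 TPM, range 85.4 to 109) was above the activator E2f1 (53.0 TPM, range 42.7 to 64.3) in every library. This order too comes from the per-length scale, with 6451 bp of exons for E2f1 and 2002 bp for E2f2. Exons of E2f2 also share 19.9% of their length with Mpp6 on the opposite strand, so its count is uncertain. In CPM E2f1 (197 to 303) was above E2f2 (123 to 159) in every library. Their common partner Dp was at 70.8 TPM. Cyclin D (CycD) and its kinase Cdk4 were at 79.1 and 58.7 TPM, with overlapping ranges of 60.6 to 91.8 and 48.3 to 72.2 TPM.

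The replication genes were led by PCNA, the sliding clamp of DNA polymerase, at 1546 TPM (1271 to 1718), which alone made up 62.9% to 70.6% of the summed level of this group. Ribonucleotide reductase, which makes the deoxynucleotides, followed with its small subunit RnrS at 184 TPM and its large subunit RnrL at 112 TPM. RnrS exceeded RnrL in each library, by 1.06 to 2.21 times. This order rests on the per-length scale, with 1593 bp of exons for RnrS and 2577 bp for RnrL. In CPM RnrL was above RnrS in dorsal replicate 1 (186 against 181) and in ventral replicate 1 (311 against 203), and below it in the remaining libraries. The 5 measured subunits of the Mcm helicase, which work as a ring, differed in mean level. On average dpa (the fly Mcm4) stood at 96.6 TPM, Mcm2 at 89.6, Mcm5 at 80.4, Mcm6 at 53.4 and Mcm7 at 37.1 TPM. The ranges of dpa (64.7 to 151), Mcm2 (64.2 to 129) and Mcm5 (53.9 to 113) overlapped, so their order is within their spread. Mcm6 spanned 30.8 to 84.6 and Mcm7 29.3 to 43.5 TPM. The level of Mcm2 was 2.06 to 3.03 times that of Mcm7 within a library. The exons of Mcm7 share 2003 bp, 81.7% of their length, with asRNA:CR45871 on the opposite strand, and no source used here states whether counting used strand, so the Mcm7 count is uncertain. The licensing genes double parked (dup, the fly Cdt1) and Orc2 were at 58.0 and 32.4 TPM.

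Among the G2/M genes, the mitotic kinase Cdk1 stood highest, at 883 TPM (763 to 1076). Cyclin A (CycA, 146 TPM) and Cyclin B3 (CycB3, 124 TPM) exceeded Cyclin B (CycB, 77.7 TPM) in each library. The Cdc25 phosphatase gene string (stg), which times mitotic entry in the fly, was at 66.2 TPM, between 0.0496 and 0.103 of the level of its target Cdk1. That distance is larger on the per-length scale, with 3064 bp of exons for stg and 1082 bp for Cdk1. In CPM stg had 104 to 199 and Cdk1 560 to 865. The kinase genes polo and aurB were at 238 and 208 TPM, and aurA, which acts at the centrosome, at 43.9 TPM. Of the cytokinesis pair that forms centralspindlin, tum (the RacGAP subunit) was at 188 and pav (the kinesin) at 49.4 TPM. The aurB partner Incenp, the spindle checkpoint kinase gene BubR1 and the kinesin-5 gene Klp61F were the lowest of the group, at 34.4, 31.1 and 25.2 TPM, with overlapping ranges (24.2 to 56.1, 25.7 to 37.2 and 15.8 to 31.3). Of the activators of the anaphase-promoting complex, fzy (Cdc20), which acts in mitosis, was at 81.2 TPM and fzr (Cdh1), which acts on leaving mitosis and in G1, at 56.5 TPM. Their ratio ran from 0.999 in ventral replicate 2 to 1.94 in ventral replicate 1.

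The comparison of dorsal with ventral cells asks whether the parts of the neuroepithelium differ in these genes. None of the 34 genes passed the test, whereas 0.023% of all tested genes were called higher in dorsal and 0.0689% higher in ventral cells (edgeR quasi-likelihood test, adjusted p under 0.05 after Benjamini-Hochberg adjustment over 8707 genes). At an unadjusted p under 0.05, 0 of the 34 genes passed with edgeR, against 3.2% of all tested genes, and 0 passed with DESeq2, against 3.31%. With DESeq2 the adjusted test also called none of the 34, against 0.495% of its tested genes. The log2 fold changes (dorsal minus ventral) of the 34 genes lay between -0.31 and 0.32, and the adjusted p was 1 for each (edgeR). Of 9 G1/S genes 6 had higher values in dorsal libraries, with a median log2 fold change of 0.085. Of 10 replication genes 6 had higher dorsal values (median 0.015), and of 15 G2/M genes 7 (median -0.074). Over all 8707 genes the median was 0.001. Without ventral replicates 1 and 2, which leaves 1 ventral library, 0 of the 34 genes were called by edgeR as well, and 33 of the 34 intervals described next lay within 2-fold. The labels do not tie the samples to separate days or crosses, so the spread that these p-values measure may be partly technical.

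A missed threshold does not show equal levels, so the 95% interval gives the sizes of difference that the data allow. For all 34 genes the interval of the log2 fold change lay between -1 and 1, that is, within a 2-fold difference in either direction. That held for 61.8% of all tested genes and for 94.5% of the 4643 tested genes with a mean CPM at least that of the lowest listed gene (Rbf, 28.5 CPM), so the share among the listed genes is near that of genes read at similar depth. The widest interval was that of Orc2, from -0.88 to 0.70.

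**Figure D2:**
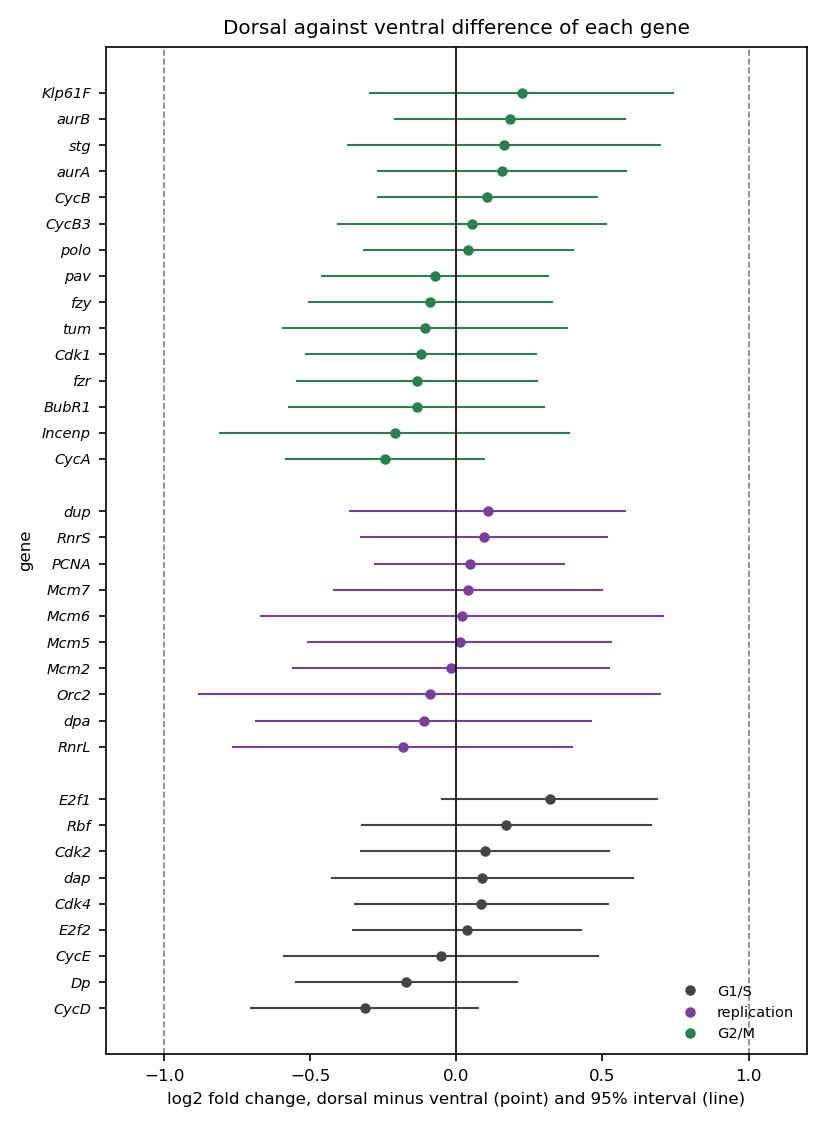
Log2 fold change of each gene, dorsal minus ventral (points), with its 95% interval (lines) from the edgeR fit, by phase group; dashed lines mark a 2-fold difference. All 34 intervals lie between the dashed lines.

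In the G1/S group the smallest p belonged to E2f1, CycD, Dp and Rbf. E2f1 had 259.8, 303 and 246 CPM in dorsal replicates 1, 2 and 3 and 219, 233 and 197 CPM in ventral replicates 1, 2 and 3. The gene lies on chromosome 3R at 21620304 to 21660871 (minus strand, BDGP6). Every dorsal library was above every ventral one, and the log2 fold change was 0.32 ± 0.17 (95% interval -0.049 to 0.69). Groups that did not overlap with dorsal above were seen for 4.09% of all tested genes. An antisense RNA, asRNA:CR46055, covers 283 bp of the E2f1 exons. CycD, which drives growth and G1 progression with Cdk4, went the other way, with 118, 109 and 142 CPM in the dorsal and 151, 167 and 140.2 CPM in the ventral libraries. It lies on chromosome X at 15906822 to 15909676 (minus strand). Its groups overlapped through dorsal replicate 3, and the log2 fold change was -0.31 ± 0.17 (95% interval -0.70 to 0.075). Dp had 155, 148 and 152 CPM in the dorsal and 176, 192 and 144 CPM in the ventral libraries, with ventral replicate 3 below all dorsal libraries, and a log2 fold change of -0.17 ± 0.17 (95% interval -0.55 to 0.21). Rbf had a dorsal mean of 30.2 ± 3.48 CPM and a ventral mean of 26.8 ± 3.61 CPM (± SD, n = 3), a log2 fold change of 0.17 ± 0.22 (95% interval -0.32 to 0.67). The adjusted p was 1 for these 4 genes (edgeR).

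Of the G2/M genes, CycA, which acts in S phase and at mitotic entry, had the smallest p. It had 258, 285 and 286 CPM in the dorsal and 343, 330.3 and 308 CPM in the ventral libraries. The gene lies on chromosome 3L at 11826719 to 11833578 (minus strand). Each ventral library was above each dorsal one, as for 3.17% of all tested genes, and the log2 fold change was -0.24 ± 0.15 (95% interval -0.58 to 0.095). The kinase gene aurB had 187, 215 and 154 CPM in the dorsal and 169, 151 and 169 CPM in the ventral libraries, with overlapping groups and a log2 fold change of 0.18 ± 0.18 (95% interval -0.21 to 0.58). Klp61F, the motor that pushes spindle poles apart, had 81.2, 67.8 and 73.2 CPM in the dorsal and 82.2, 45.4 and 62.6 CPM in the ventral libraries and a log2 fold change of 0.22 ± 0.23 (95% interval -0.30 to 0.74). For aurA the values were 47.8, 55.4 and 52.7 CPM in the dorsal and 42.0, 51.5 and 46.4 CPM in the ventral libraries, and the log2 fold change was 0.16 ± 0.19 (95% interval -0.27 to 0.58). The adjusted p was 1 for these 4 genes as well (edgeR). Exons of Klp61F share 424 bp with galene and those of aurA 153 bp with CG12213, each on the opposite strand.

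In the replication group the 4 smallest p belonged to RnrL, RnrS, dup and dpa, whose values in each library follow with the spread among ventral libraries. The log2 fold change of RnrL was -0.18 ± 0.26 (95% interval -0.76 to 0.40) and that of RnrS 0.096 ± 0.19 (95% interval -0.33 to 0.52). For dup it was 0.11 ± 0.21 (95% interval -0.36 to 0.58) and for dpa -0.11 ± 0.26 (95% interval -0.68 to 0.46), with an adjusted p of 1 for each (edgeR). PCNA, the most abundant member, had 1188, 1288 and 1097 CPM in the dorsal and 1248, 1011 and 1202 CPM in the ventral libraries, and the 95% interval of its log2 fold change, -0.28 to 0.37, was the narrowest of the 34.

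**Figure D3:**
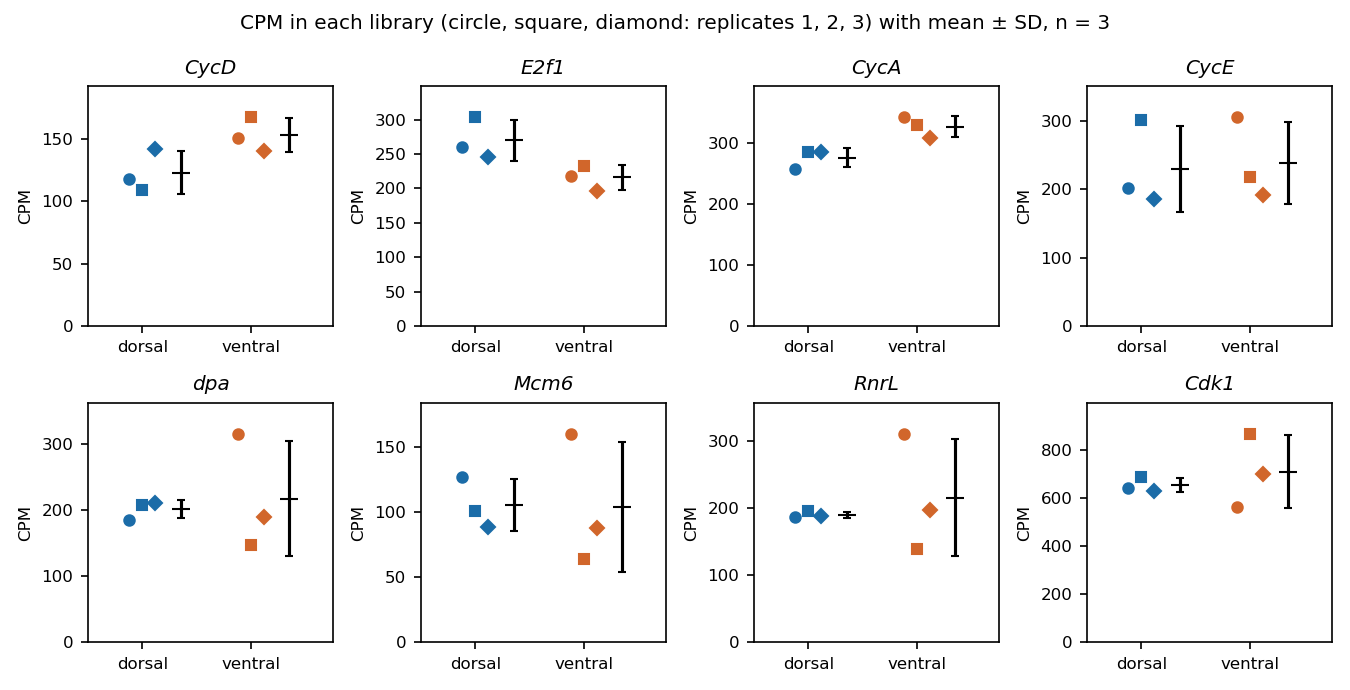
CPM of 8 genes in each library; circle, square and diamond are replicates 1, 2 and 3, and the black bar is the mean ± SD over 3 libraries. CycA and E2f1 separate the groups, while dpa, Mcm6 and RnrL spread most between ventral replicates 1 and 2 and Cdk1 spreads the opposite way.

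The replication genes varied most between ventral replicates 1 and 2. The helicase subunit gene dpa had 185, 208 and 211 CPM in the dorsal and 315, 148 and 189.7 CPM in the ventral libraries. Mcm6 had 127, 101 and 88.5 CPM in the dorsal and 160.3, 63.8 and 88.1 CPM in the ventral libraries, and Mcm5 had 145, 146 and 128 CPM in the dorsal and 188, 98.2 and 129.6 CPM in the ventral libraries. In each of these genes ventral replicate 1 was the highest and ventral replicate 2 the lowest of the 6 libraries, while the dorsal libraries and ventral replicate 3 lay between. Mcm2 (205, 193 and 149 CPM in the dorsal and 254, 138 and 161 CPM in the ventral libraries) followed the same order. So did RnrL, with 186, 195 and 188 CPM in the dorsal and 311, 139 and 197 CPM in the ventral libraries, a dorsal coefficient of variation of 2.43% and a ventral one of 40.5%. Orc2 (36.2, 56.1 and 40.4 CPM in the dorsal and 73.8, 25.3 and 42.2 CPM in the ventral libraries) showed the widest range, with ventral replicate 1 2.92 times ventral replicate 2, and dup (146, 141 and 114 CPM in the dorsal and 152, 93.0 and 127 CPM in the ventral libraries) a narrower one of 1.63 times. The remaining members kept closer together: ventral replicate 1 exceeded ventral replicate 2 by 1.33 times for Mcm7 (57.1, 78.1 and 61.0 CPM in the dorsal and 71.3, 53.4 and 66.1 CPM in the ventral libraries), 1.23 times for PCNA and 1.10 times for RnrS. RnrS had 181, 267 and 198 CPM in the dorsal and 203, 185 and 217 CPM in the ventral libraries, with its highest value in dorsal replicate 2.

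In all, ventral replicate 1 was above ventral replicate 2 for 10 of 10 replication genes, by at least 1.5 times for 7. The corresponding shares over all tested genes at or above the level of the lowest listed gene were 52.1% and 18.7%. Both ventral replicate 1 highest and ventral replicate 2 lowest held for 7 of 10 replication genes and for 14.0% of those tested genes. The median coefficient of variation of the replication genes was 33.1% among ventral and 14.6% among dorsal libraries, beside 18.7% and 12.6% for tested genes of that level. The sign of the dorsal against ventral median of the replication genes changed with the libraries used. It was 0.015 over all 6, 0.27 without ventral replicate 1 and -0.19 without ventral replicate 2. Without dorsal replicate 2 it was -0.073 and without ventral replicate 3 -0.069, so the sign did not rest on ventral replicates 1 and 2 alone. RnrL and dpa turned from negative values to 0.17 and 0.25 without ventral replicate 1. Without ventral replicate 1 the medians of the other groups turned too, to -0.022 for G1/S and 0.16 for G2/M genes, and without both ventral replicates 1 and 2 the G2/M median was 0.032. This contrast of single libraries was noticed in the data and has no replicate check, so it carries no test.

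G2/M genes split between both orders, with ventral replicate 1 above ventral replicate 2 for 11 of 15, or 73.3%, against 52.1% of tested genes of that level. Cyclin B3 had 270.1, 280.3 and 221 CPM in the dorsal and 311, 193 and 239.8 CPM in the ventral libraries. Incenp, which tethers aurB to chromosomes and the midzone, had 64.6, 67.7 and 59.4 CPM in the dorsal and 108, 51.1 and 62.8 CPM in the ventral libraries. The values of tum were 286, 321 and 298 CPM in the dorsal and 437, 242 and 297 CPM in the ventral libraries. These genes shared ventral replicate 1 as their highest and ventral replicate 2 as their lowest library, as did polo, fzy and Klp61F. That order held for 6 of 15 G2/M genes, or 40%, against 14.0% of tested genes of that level. Klp61F and fzy (110.5, 115 and 108 CPM in the dorsal and 143, 96.2 and 115 CPM in the ventral libraries) had ventral replicate 1 above ventral replicate 2 by 1.81 and 1.49 times. The spread was smaller for polo (477, 541 and 514 CPM in the dorsal and 576, 436 and 477 CPM in the ventral libraries), for CycB (172, 183 and 167 CPM in the dorsal and 177, 137 and 170.1 CPM in the ventral libraries) and for pav (99.4, 115 and 114 CPM in the dorsal and 129.7, 99.8 and 117 CPM in the ventral libraries). In the other direction Cdk1 had 641, 685 and 630.1 CPM in the dorsal and 560.4, 865 and 701 CPM in the ventral libraries, with ventral replicate 2 the highest and ventral replicate 1 the lowest of the 6 libraries. BubR1 (96.8, 87.8 and 107 CPM in the dorsal and 108, 128 and 85.0 CPM in the ventral libraries) and fzr (113, 117 and 90.3 CPM in the dorsal and 103, 135 and 114 CPM in the ventral libraries) were also highest in ventral replicate 2. The most even G2/M member between these libraries was CycA, at 1.04 times. Within the dorsal group the widest spread belonged to stg, with 153, 199 and 104 CPM in dorsal replicates 1, 2 and 3 and 159, 121 and 127 CPM in the ventral libraries.

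Among the G1/S regulators, ventral replicate 2 exceeded ventral replicate 1 for 7 of 9 genes, whereas it did so for 47.9% of tested genes of their level. The inhibitor gene dap had 246, 259 and 206 CPM in the dorsal and 156, 294 and 219 CPM in the ventral libraries, highest in ventral replicate 2 and lowest in ventral replicate 1. Its target kinase gene Cdk2 had 229.7, 229.7 and 240.4 CPM in the dorsal and 167, 261 and 225 CPM in the ventral libraries, in the same order. Exons of Cdk2 share 1010 bp (43.9% of their length) with CG17267 on the opposite strand, so its count is uncertain. CycE, with 201, 302 and 187 CPM in the dorsal and 306, 218 and 191 CPM in the ventral libraries, was instead high in ventral replicate 1 and in dorsal replicate 2. The ratio of CycE to dap in TPM was therefore 0.410, 0.584 and 0.453 in dorsal and 0.983, 0.372 and 0.438 in ventral replicates 1, 2 and 3, with ventral replicate 1 above the other 5 libraries. Values for Cdk4 (119.8, 87.0 and 110.2 CPM in the dorsal and 89.0, 117 and 92.4 CPM in the ventral libraries) and for E2f2 (138, 159 and 123 CPM in the dorsal and 126, 131 and 153 CPM in the ventral libraries) overlapped between the groups; exons of E2f2 share 399 bp with Mpp6 on the opposite strand.

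**Figure D4:**
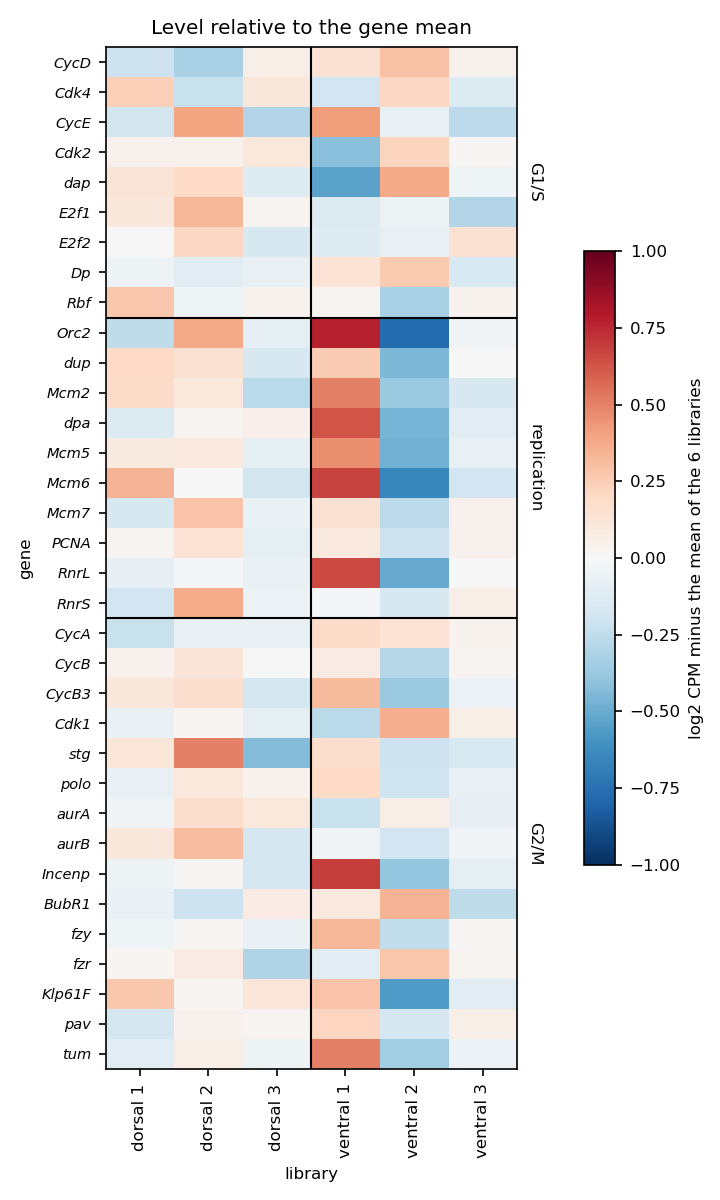
Log2 CPM of each gene minus its mean over the 6 libraries (red above, blue below), in rows by phase group and in columns by library. Replication genes are mostly red in ventral replicate 1 and blue in ventral replicate 2, while dap, Cdk2 and Cdk1 show the reverse.

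Summing by phase within a library removes the scaling between libraries. The summed TPM of replication genes divided by that of G1/S genes was 3.24, 3.41 and 3.14 in dorsal and 4.10, 2.40 and 3.41 in ventral replicates 1, 2 and 3. Without PCNA the ratio was 1.02, 1.11 and 1.00 in dorsal and 1.52, 0.706 and 1.05 in ventral replicates 1, 2 and 3, and for the 5 Mcm genes alone 0.517, 0.502 and 0.476 in dorsal and 0.782, 0.324 and 0.479 in ventral replicates 1, 2 and 3. In each of these ratios ventral replicate 1 was highest and ventral replicate 2 lowest, and the dorsal and ventral means lay within 1 SD of the ventral group. The summed G2/M level divided by the G1/S level varied less, from 2.98 to 3.61. That sum leans on Cdk1, which ran against most of its group between ventral replicates 1 and 2. Cdk1 alone held 763 of 2406 TPM in ventral replicate 1 and 1076 of 2232 TPM in ventral replicate 2. A G2/M ratio without Cdk1 was not taken, so the smaller range does not describe the other G2/M genes.

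Ratios within a library were taken for 15 pairs of listed genes, chosen after their levels were seen. The dorsal and ventral libraries did not overlap in 3 of the 15, whereas 6.11% of all pairs of tested genes at this level did not overlap. The ratio of CycD to Cdk4 was 0.988, 1.25 and 1.29 in dorsal and 1.70, 1.43 and 1.52 in ventral replicates 1, 2 and 3. The ratio of CycA to CycB was 1.57, 1.63 and 1.78 in dorsal and 2.02, 2.51 and 1.89 in ventral replicates 1, 2 and 3. That of E2f1 to E2f2 was 0.585, 0.592 and 0.618 in dorsal and 0.539, 0.553 and 0.398 in ventral replicates 1, 2 and 3, so it was lower in all ventral libraries. With 3 libraries against 3, the smallest 2-sided p of an exact permutation test is 0.1, so that test could not pass for a single ratio and no test was run. Each of the 3 ratios holds a gene already named for its small p (CycD, CycA or E2f1).

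Measures of transcript length and of other cell types moved with the contrast of ventral replicates 1 and 2. Among tested genes of at least the level of the lowest listed gene, the median log2 difference (ventral replicate 1 minus ventral replicate 2) was -0.45 for 329 genes with up to 750 bp of exons, 0.30 for 909 genes of over 2000 and up to 3000 bp and -0.17 for 425 genes over 6000 bp. The median difference of the 10 replication genes was 0.90, and taken gene by gene against the median of its length class it was 0.61, with 9 of 10 genes above their class. RnrS was the exception, at -0.071. The same value was 0.11 for G2/M and -0.39 for G1/S genes, with dap at -1.21 and Mcm6 at 1.02. The length classes were chosen after the values were seen.

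Of the 6 neuroblast genes, 5 were higher in ventral replicate 1 than in ventral replicate 2 and 3 were highest there among all libraries. Of these 3, wor had 194, 292 and 109 CPM in the dorsal and 519, 137 and 171 CPM in the ventral libraries, whereas ase and pros were highest in dorsal replicate 2 and insc in dorsal replicate 1, and insc had 15.1 and 17.3 CPM in ventral replicates 1 and 2. The summed level of the 6 genes was 1283 CPM in ventral replicate 1 and 635 CPM in ventral replicate 2. Of 7 neuron genes 6 were higher in ventral replicate 2. Their summed level, made up mostly of elav and fne, was 654 CPM in ventral replicate 1 and 1233 CPM in ventral replicate 2. The synaptic vesicle gene nSyb was the exception, with 39.0 and 6.63 CPM in ventral replicates 1 and 2. Of 7 neuroepithelial genes 5 were higher in ventral replicate 2, hth among them with 522 and 1078 CPM in ventral replicates 1 and 2, and Optix (176 and 173 CPM) and Fas3 were higher in ventral replicate 1. Glia genes were higher in ventral replicate 1 for 6 of 7, with a median fold of 2.06. In ventral replicates 1 and 2, wrapper had 23.0 and 0.491 CPM and Gs2 11.3 and 0.393 CPM. The glial factor gene repo had 3.03 and 0.197 CPM in the same libraries. The most abundant glia genes differed less, with 1161 and 1095 CPM for nrv2 and 148 and 120 CPM for Eaat1. Gli was the exception, with 4.59 and 14.6 CPM in ventral replicates 1 and 2. The dosage compensation RNAs differed as well, with 261 and 3.05 CPM for lncRNA:roX2 and 1498 and 454 CPM for lncRNA:roX1. In the dorsal libraries the summed neuroblast level was 754, 1170.2 and 486 CPM in dorsal replicates 1, 2 and 3, while the median log2 deviation of the replication genes from their own means was -0.028, 0.12 and -0.092. The part of these cell types, of the dosage compensation RNAs and of transcript length in the spread of the replication genes was not tested beyond these values.

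**Figure D5:**
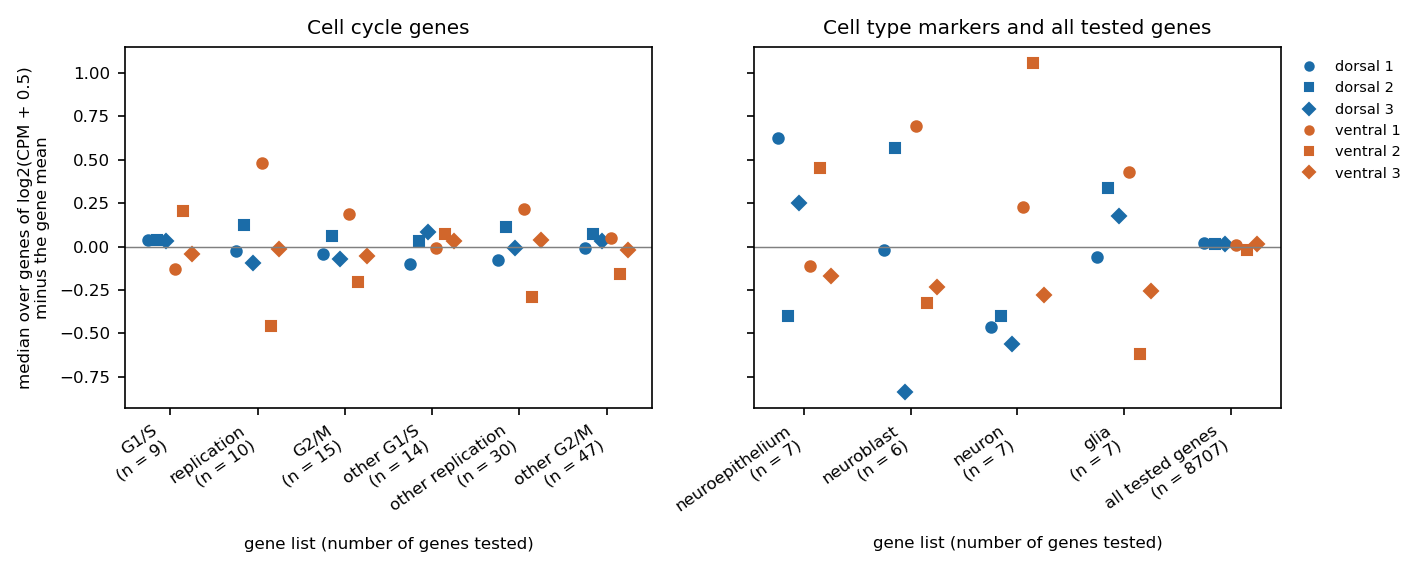
Median over the genes of each list of log2(CPM + 0.5) minus the gene mean, in each library; n is the number of genes tested, and colours and marks are as in the plot of levels. The replication genes, of this list and of the wider list, are highest in ventral replicate 1 and lowest in ventral replicate 2. The listed G2/M genes and the glia genes show the same highest and lowest library.

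A wider list of 98 other cell cycle genes, of which 93 were found by symbol or synonym and 91 were tested, gave 0 calls with edgeR and 0 with DESeq2. Over all tested genes edgeR called 0.023% higher in dorsal and 0.0689% higher in ventral cells, and DESeq2 called 0.495%. At an unadjusted p under 0.05, 1 of the 91 passed with edgeR, against 3.2% of all tested genes. That gene was Myt1, a kinase that inhibits Cdk1, with 32.0, 27.5 and 30.8 CPM in the dorsal and 22.3, 20.3 and 21.1 CPM in the ventral libraries and a dorsal minus ventral difference of 0.50 ± 0.21 on the log2 scale (adjusted p = 1, edgeR). Next among the G2/M genes was feo, a midzone microtubule bundler, with 85.2, 72.3 and 82.2 CPM in the dorsal and 72.5, 52.0 and 59.9 CPM in the ventral libraries. In the other lists the smallest p belonged to mip120, a subunit of the complex that holds E2F targets silent, with 54.5, 48.0 and 45.5 CPM in the dorsal and 30.0, 43.5 and 36.3 CPM in the ventral libraries, and to Cdk7, the kinase that activates other Cdks (128, 135 and 150.4 CPM in the dorsal and 133, 103 and 110.0 CPM in the ventral libraries). Among replication genes they belonged to PolE1, the catalytic subunit of DNA polymerase epsilon (13.5, 18.2 and 19.3 CPM in the dorsal and 13.1, 11.6 and 11.8 CPM in the ventral libraries), and to the licensing gene Cdc6 (28.6, 23.7 and 26.8 CPM in the dorsal and 25.6, 14.1 and 19.1 CPM in the ventral libraries). All of these had an adjusted p of 1 (edgeR). The median log2 fold change was -0.069 over 14 G1/S, 0.036 over 30 replication and 0.072 over 47 G2/M genes. Of the 47 other G2/M genes, 33 had higher values in dorsal libraries, beside 7 of the 15 listed G2/M genes, 4376 of all 8707 tested genes and 2245 of the 4643 at the level of the listed genes.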

How the data were processed

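Polyadenylated RNA of 3 dorsal and 3 ventral pooled samples, grouped by the sample titles, was made into libraries with SMART-Seq v4 and Nextera XT kits, per the labels' protocols. Counts were deposited as whole reads for each gene, left unnormalized by the authors. Trimmomatic, featureCounts and DESeq2 and the builds dm6 and BDGP6 are named in the submitters' processing notes; the aligner, the versions and the strand setting are not given in these sources. The authors' deposited normalized counts are a signal scale, in which each library's reads were divided by a single factor.

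Identifiers were matched to a BDGP6 annotation (17253 of 17559 had a symbol). The test was edgeR's robust quasi-likelihood fit (version 4.0.16, R 4.3.3) with TMM scaling, the filterByExpr filter and no term but the group, adjusted by Benjamini-Hochberg over 8707 genes. The SE was obtained by dividing the absolute log2 fold change by the root of F, and 95% intervals use the total degrees of freedom. TPM was computed from counts and union exon lengths. Fold changes and intervals are printed for the 4 members of each phase group with the smallest p, and levels for every member; Orc2, PCNA and Myt1 are given for their intervals or p and were picked after these were seen. DESeq2 1.42.0 and limma 3.58.1 served as alternatives, and the tests were checked on simulated counts. The members and lists were chosen with earlier results of these data known. Top2, Mcm3, RPA2, RPA3 and Ki-67 of the wider list were not analysed here by name. Exons of 12 of the 34 members overlap a gene on the opposite strand, by over 10% of their length for Mcm7, Cdk2, E2f2 and Klp61F. Promoter sequences were not used here. No pair of libraries of a group agreed within sampling noise. Intervals cover the spread between samples and not separate sources of it.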

Additional observations from a re-analysis of the deposited data

How the results depend on the processing

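With edgeR, DESeq2 and limma-trend, 0 of the 34 genes and 0 of the wider list were called in any of 14 alternative fits (RLE factors, library size alone, other filters, other tools, the replicate number as a block, each library left out, and ventral replicates 1 and 2 left out together). The smallest adjusted p of a listed gene over all fits was 0.893 and the largest absolute log2 fold change 0.47. With the replicate block 0 genes were called in either direction, 34 intervals lay within 2-fold, and the median log2 fold changes were 0.085 (G1/S), 0.043 (replication) and -0.064 (G2/M). Deviations of libraries with the same number had correlations of 0.0029, -0.038 and 0.059 across genes, and no dorsal library correlated best with its own number, so the number was not taken to pair samples. Leaving out 1 library in turn gave medians of -0.022 to 0.075 for G1/S, -0.19 to 0.27 for replication and -0.080 to 0.16 for G2/M genes, and 32 to 34 intervals within 2-fold. The lowest and highest replication medians came without ventral replicates 2 and 1. Of 182 values of the 13 genes with a printed fold change, 7 changed sign, none of them called: without both ventral replicates 1 and 2, where ventral replicate 3 stands alone and is taken to vary as much as the dorsal libraries, Dp had 0.075, RnrS -0.0086 and dpa 0.087; and with single libraries left out RnrS ran from -0.087 (without dorsal replicate 2) to 0.20, RnrL from -0.43 to 0.17 and dpa from -0.34 to 0.25 (highest without ventral replicate 1), and dup from -0.070 (without ventral replicate 2) to 0.28. Under library size alone, the deposited factors or TPM, alternatives chosen after seeing the data, 7 to 8 replication genes were highest in ventral replicate 1 and 9 to 10 lowest in ventral replicate 2.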

Other observations

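Replication genes outside the list of 34 also differed between ventral replicates 1 and 2. Of 30 tested genes 24 were higher in ventral replicate 1 and 12 by at least 1.5 times, as values with no test. The shares were 51.3% and 24.8% over all tested genes. At the level of the listed genes, which 23 of the 30 reached, they were 52.1% and 18.7%. The replication factor C large subunit gene Gnf1 had 131 and 42.7 CPM in ventral replicates 1 and 2, and the chromatin assembly genes Caf1-105 and Caf1-180 had 110.4 and 39.2 CPM and 41.9 and 16.9 CPM. The primase-associated polymerase subunit gene PolA2 had 62.7 and 23.1 CPM. Cdc45, which joins Mcm and GINS in the active helicase, had 119 and 48.1 CPM. Subunits of the GINS complex itself did not move one way, with 27.0 and 13.0 CPM for Psf1 but 64.4 and 116 CPM for Psf2, 49.5 and 61.0 CPM for Psf3 and 39.5 and 49.0 CPM for Sld5. The median difference of 23 of these genes at the level of the listed genes from their length classes was 0.30 on the log2 scale, and 17 of the 23 lay above their class.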
